A study of Oryctolagus cuniculus with 134 samples.

Results

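Genes for solute carriers of glucose and other sugars, amino acids, monocarboxylates and folate were followed in the aorta and the 4 heart valves of rabbits. The set holds every gene whose symbol starts with SLC1A, SLC2A, SLC5A, SLC6A, SLC7A, SLC16A, SLC19A, SLC36A, SLC38A, SLC43A or SLC46A followed by a number, and its rule uses no measured value. These were 82 of the 29587 genes listed, of which 14716 carry a symbol. Grouped by family, 9 belonged to the facilitative hexose transporters (SLC2A), 11 to the sodium-coupled sugar, inositol, vitamin and anion transporters (SLC5A), 4 to the glutamate and neutral amino acid transporters (SLC1A) and 11 to the sodium- and chloride-coupled transporters (SLC6A). A further 5 were cationic amino acid transporters and 6 were light chains of heteromeric amino acid transporters, both of the SLC7A family, 13 were of the monocarboxylate family (SLC16A), 5 were of the folate and thiamine families (SLC19A and SLC46A), and 4, 10 and 3 were of the SLC36A, SLC38A and SLC43A families, known mainly for amino acids. Families were kept whole, so a group can hold genes of another substrate, such as SLC43A3. SLC7A6OS matched by its name only, since it is the gene opposite SLC7A6 and not a transporter. Of the 82 genes, 62 passed the filter on low counts in at least 1 tissue, 43 in all 5 tissues and 20 in none, among them 8 of the 11 SLC5A genes. SLC2A3, SLC7A5, SLC1A1, SLC1A4, SLC7A6, the folate receptor genes FOLR1, FOLR2 and FOLR3, and BSG were not analysed here by name.

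Solute carriers move small polar molecules across membranes that these could not cross unaided. Facilitative hexose carriers let glucose run down its gradient, monocarboxylate carriers pass lactate or pyruvate together with protons, and sodium-coupled carriers pull amino acids or glutamate into cells against a gradient. Heteromeric exchangers pair a light chain of the SLC7 family with a glycoprotein heavy chain such as SLC3A2, and trade 1 amino acid for another. Reduced folate reaches cells through SLC19A1 and, at acid pH, through SLC46A1, and it carries the one-carbon units used in nucleotide synthesis. Arteries and valves use glucose and glutamine, and macrophages that enter atherosclerotic tissue are known for high glycolysis, amino acid exchange and lysosomal traffic.

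RNA was sequenced from 5 tissues, namely proximal aorta, aortic valve, mitral valve, pulmonary valve and tricuspid valve, of 27 male New Zealand White rabbits, which gave 134 libraries. Control rabbits (Ctrl) received chow, CHT rabbits a diet with 0.3% cholesterol, Lard rabbits a diet with 5% lard, and IR/CHT rabbits the CHT diet with X-ray irradiation of the heart once 8 weeks of diet had passed, given as 3 fractions of 8 Gy (24 Gy in sum) and focused on the aortic valve and thoracic aorta. CHT, Lard and IR/CHT rabbits, but not Ctrl, also received 25000 U of vitamin D2 per day and 2.5 kg for 15 days, so that the diet and the vitamin cannot be told apart against Ctrl. Protocols started at 12 weeks of age and lasted 16 weeks. Each tissue had 7 Ctrl, 6 CHT, 7 Lard and 7 IR/CHT libraries, with 1 Ctrl library fewer for the mitral valve, and each rabbit gave several tissues under 1 treatment. The deposited values were read pairs counted per gene, between 13564979 and 50577676 per library with a median of 18235577. Levels are given as CPM, the count of a gene relative to the TMM-scaled size of its library. A gene was called, and is said to have risen or fallen, where edgeR's quasi-likelihood test, two-sided and over all genes tested in that tissue, gave a Benjamini-Hochberg adjusted p under 0.05 and a fold change over 1.5. Log2 fold changes are given ± SE from that fit, and the adjusted p printed below are from the same test.

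Libraries differed in ways that the groups do not explain. Plate 2 held the whole aorta, plate 1 every CHT library of both left valves, and each remaining valve group had libraries on either plate. In 5 libraries, mitochondrial mRNA made up under 0.15% of the counts, namely aortic valve Ctrl L150, L166 and L261, aortic valve CHT L151 and tricuspid valve Ctrl L168. Another 4 libraries and L168 correlated better with a group of another tissue than with their own by over 0.02, namely aortic valve Ctrl L277, pulmonary valve IR/CHT L275, tricuspid valve Lard L272 and tricuspid valve IR/CHT L197, and L168 had a correlation of 0.780 with the tricuspid valve Ctrl group against 0.966 with the aortic valve Ctrl group. The summed level of 6 smooth muscle markers lay from 79406 to 111206 CPM (median 100092) in the Ctrl aorta, and at most at 1329.7 CPM in the Ctrl valves. Pulmonary valve IR/CHT L176 stood apart at 19903 CPM of these markers against a group median of 637 CPM, and had the highest adipocyte and red blood cell marker sums of its group. The summed level of 15 macrophage markers had Ctrl, CHT and IR/CHT medians of 165.98, 2253 and 3431 CPM in the aorta, of 537, 2122 and 7048 CPM in the aortic valve and of 455, 1623 and 3508 CPM in the mitral valve. The pulmonary valve had medians of 724, 761 and 895 CPM and the tricuspid valve of 652, 721 and 921 CPM, with no marker at 0 in any of these groups. The summed level of 8 endothelial markers had medians of 186.6 CPM in the Ctrl aorta and 766 CPM on IR/CHT, and 7 of them rose there on CHT. Of the macrophage markers, 13, 9 and 12 rose on CHT and 15, 13 and 13 on IR/CHT in the aorta, aortic and mitral valve, and on IR/CHT 4 of 15 rose in the pulmonary and 2 of 14 tested in the tricuspid valve. The part of the macrophage and endothelial markers in the results below was not tested. In whole tissue, more cells of a type and more RNA per cell cannot be told apart.

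On CHT, most of the transporter genes that were called rose. In the aorta 18 of the 54 tested members rose and 2 fell, while 19.4% of all genes tested were called, 14.2% higher and 5.18% lower. In the aortic valve 8 rose and 1 fell of 56 (all genes 11.9%, with 8.42% higher and 3.48% lower), and in the mitral valve 7 rose and none fell of 57 (all genes 5.62%, with 4.98% higher). The median log2 fold change of the members was 0.16 in the aorta, 0.03 in the aortic valve and -0.03 in the mitral valve, against -0.04, -0.02 and -0.02 over all genes, so the rises belonged to a minority of the set. With irradiation added (IR/CHT against Ctrl), 24 members rose and 7 fell in the aorta (all genes 34.3%, with 22.2% higher and 12.2% lower), 20 rose and 9 fell in the aortic valve (all genes 42.8%, with 21.1% higher and 21.7% lower), and 14 rose and 2 fell in the mitral valve (all genes 17.7%, with 11.1% higher and 6.65% lower). The members' medians were then 0.70, 0.27 and 0.21, against 0.00, -0.06 and -0.01 over all genes. In all, 40 of the 62 tested members and 56.6% of all genes tested were called in at least 1 of the 20 treatment comparisons. On CHT and again on IR/CHT, 7 of the rises in the aorta were of genes that reached the minimum of the low-count filter in no Ctrl library, namely SLC1A2, SLC6A17, SLC7A11, SLC16A3, SLC16A6, SLC46A1 and SLC46A2. Such genes were tested because they were high in another group, so their levels are a description, as are those of SLC16A3 on CHT and of SLC16A3 and SLC16A14 on IR/CHT in the aortic valve, and of SLC1A2 on either diet and SLC46A2 on IR/CHT in the mitral valve. CHT and IR/CHT were compared with the same Ctrl libraries, so that their fold changes are not independent of each other.

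**Figure D1:**
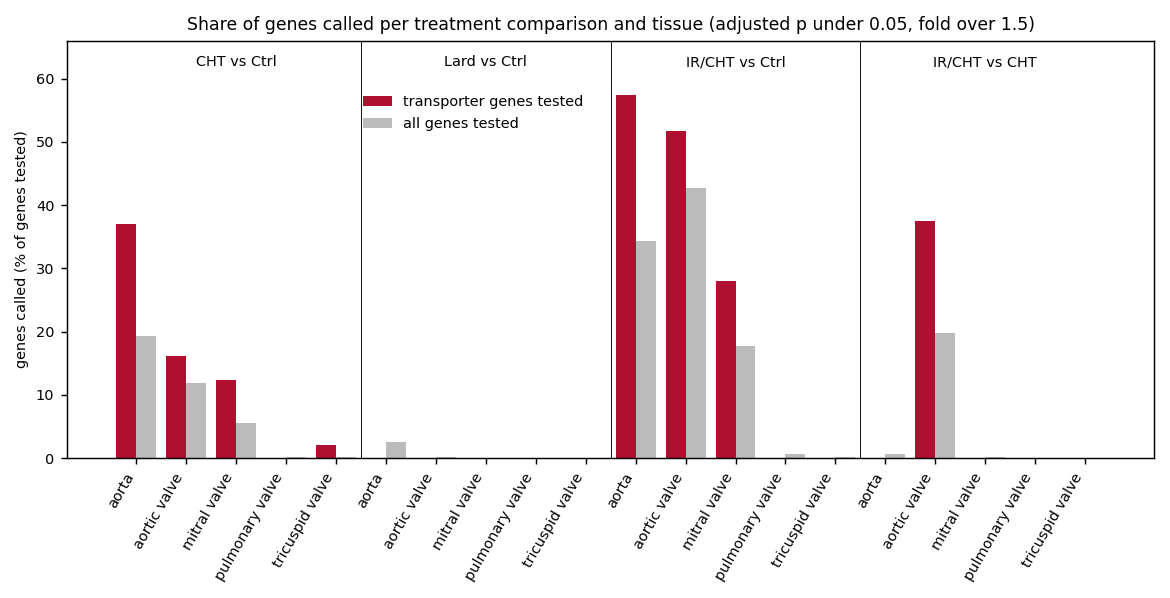
Share of the transporter genes tested (dark bars) and of all genes tested (grey bars) that were called, in % of genes tested, for 4 treatment comparisons in each of 5 tissues. The transporter bar exceeds the grey bar for CHT and IR/CHT against Ctrl in 3 tissues (aorta, both left valves) and for IR/CHT against CHT in the aortic valve, as does that of 1 gene for CHT in the tricuspid valve, and Lard has no transporter bar.

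The called genes were spread over the families as follows, with no test of a difference between families. All 3 light chain genes tested in the aorta rose on CHT, as did 4 of 9 SLC38A genes, 3 of 10 SLC16A genes and 2 of 5 folate and thiamine genes, where 14.2% of all genes were called higher. Of the 7 hexose transporters tested there, 1 rose and 1 fell, and none of the 2 SLC5A genes tested was called. Of the 51 members tested in all 3 of aorta, aortic valve and mitral valve, 5 were called on CHT in each, where 4.13% of all genes tested in the 3 rose in each, and all 5 rose: SLC7A7, SLC46A1, SLC1A2, SLC16A6 and SLC36A1. On IR/CHT, 13 members rose in all 3 tissues, namely these 5 and SLC7A8, SLC38A6, SLC38A7, SLC43A2, SLC16A3, SLC46A2, SLC46A3 and SLC6A9, and 1 fell in all 3, SLC2A12, where 8.92% of all genes rose and 2.66% fell in each. The family and shared counts include genes that reached the minimum of the low-count filter in no Ctrl library. In the aorta these included SLC1A2, SLC7A11, SLC16A6 and SLC46A1, so the counts are a description.

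**Figure D2:**
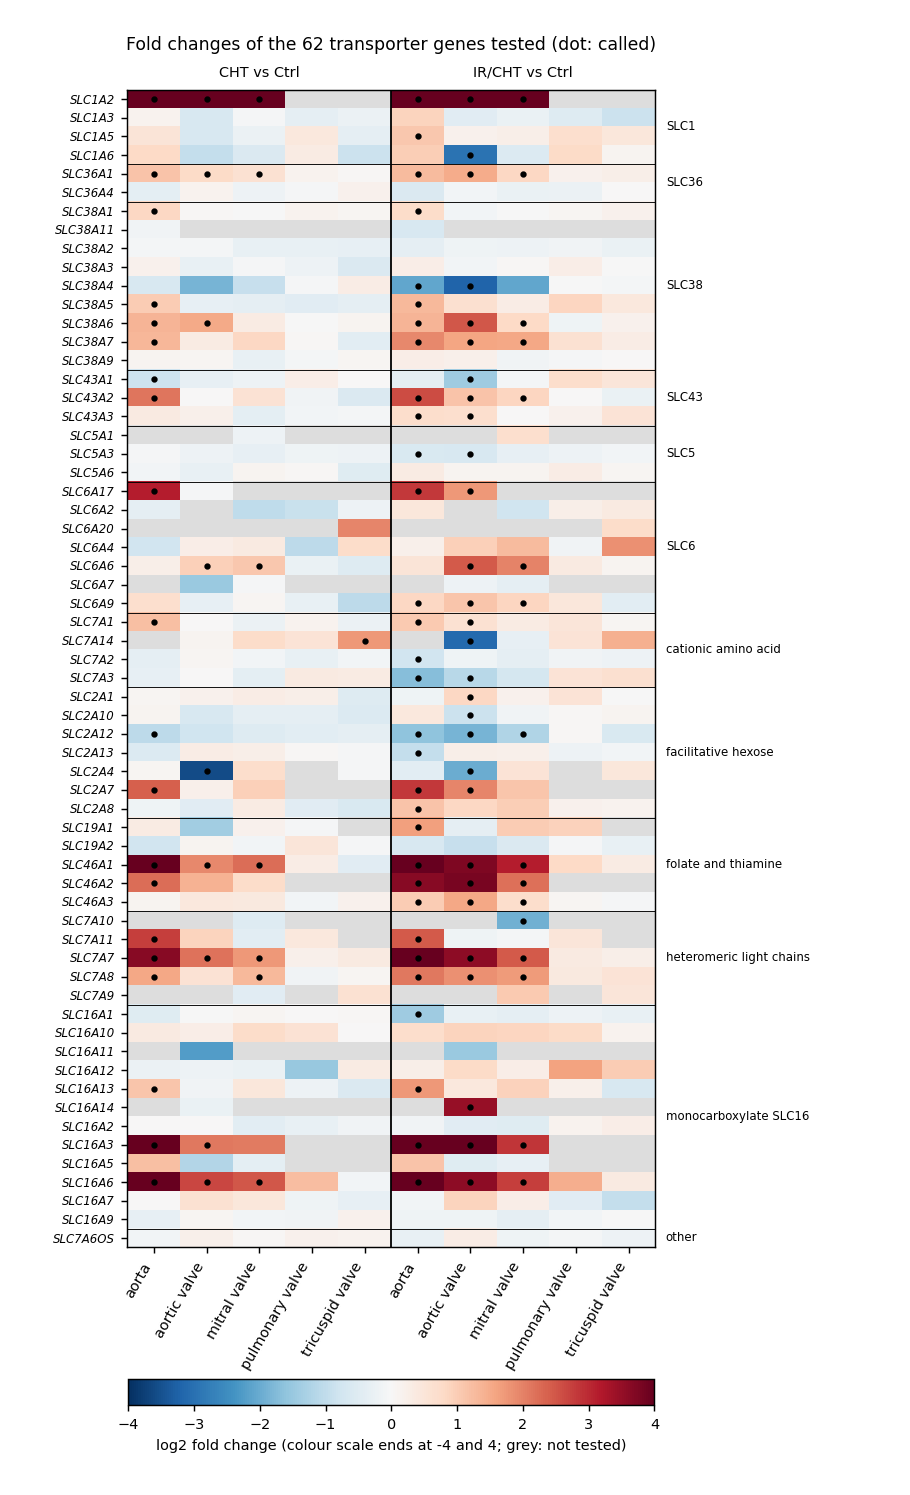
Log2 fold changes on CHT (left) and IR/CHT (right) against Ctrl of the 62 transporter genes tested, by tissue and grouped by family; colour gives the log2 fold change, grey marks genes not tested and dots mark called genes. Dots fall in the columns of the aorta and both left valves, with 1 in the tricuspid valve (SLC7A14) and none in the pulmonary valve.

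Among the light chains, SLC7A7 (ENSOCUG00000000724) rose on CHT and IR/CHT in the aorta and both left valves. It encodes the y+L exchanger subunit, which carries cationic amino acids such as arginine out of cells in trade for neutral ones. In the aorta it ranged from 0.761 to 2.61 CPM (median 2.10) in Ctrl, from 10.2 to 36.2 CPM (median 22.9) on CHT and from 14.1 to 52.9 CPM (median 31.8) on IR/CHT, and every CHT and IR/CHT library lay above every Ctrl library (log2 fold changes 3.64 ± 0.36 and 4.15 ± 0.36, adjusted p = 2.74e-08 and 1.43e-09). Aortic valve levels ranged from 2.21 to 8.94 CPM (median 4.87) in Ctrl, from 15.4 to 28.9 CPM (median 22.4) on CHT and from 49.8 to 72.7 CPM (median 52.0) on IR/CHT, in 3 groups that did not overlap. In the mitral valve the ranges were 2.74 to 8.70 CPM (median 4.85) in Ctrl, 10.9 to 28.1 CPM (median 16.6) on CHT and 15.6 to 38.6 CPM (median 28.7) on IR/CHT, with CHT and IR/CHT above all Ctrl libraries but overlapping each other. In both left valves SLC7A7 rose on CHT (2.18 ± 0.29 and 1.73 ± 0.36) and on IR/CHT (3.58 ± 0.30 and 2.45 ± 0.36). On the right side it ranged from 6.12 to 10.7 CPM (median 7.96) in the Ctrl pulmonary valve and from 6.498 to 11.1 CPM (median 7.39) in the Ctrl tricuspid valve, and it was called in no treatment comparison there.

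SLC7A8, whose product exchanges neutral amino acids, ranged in the aorta from 10.4 to 14.9 CPM (median 11.7) in Ctrl, from 20.2 to 52.9 CPM (median 36.9) on CHT and from 23.4 to 70.2 CPM (median 50.4) on IR/CHT, and rose without overlap with Ctrl (log2 fold changes 1.55 ± 0.23 and 2.11 ± 0.23). It rose in the mitral valve on CHT (1.30 ± 0.27), where the groups overlapped, and on IR/CHT (1.70 ± 0.27), where they did not. Its CHT change in the aortic valve of 0.59 ± 0.25 was not called (adjusted p = 0.105), while on IR/CHT it rose by 1.81 ± 0.24. SLC7A11, the cystine and glutamate exchanger that supplies cystine for glutathione, was low throughout and, among treatment comparisons, was called in the aorta alone, where it rose from 11 read pairs in all 7 Ctrl libraries to medians of 0.678 CPM on CHT and 0.502 CPM on IR/CHT. SLC7A10, an exchanger of small neutral amino acids, fell on IR/CHT in the mitral valve, from between 0.298 and 1.41 CPM (median 1.11) in Ctrl to between 0.0937 and 0.683 CPM (median 0.178), with overlap (-1.91 ± 0.58, adjusted p = 0.0150), and the call was lost within either plate (0.159 and 0.148). The shared heavy chain, SLC3A2, rose in the aorta on CHT (0.89 ± 0.19) and IR/CHT (1.23 ± 0.19), and on IR/CHT in the aortic (1.58 ± 0.18) and mitral valve (0.85 ± 0.17). On CHT its changes in these valves were 0.31 ± 0.19 and 0.55 ± 0.18 and were not called. The cationic amino acid transporter SLC7A2, which takes up arginine, went the other way. It ranged from 82.7 to 117 CPM (median 94.7) in the Ctrl aorta and from 30.7 to 74.7 CPM (median 54.0) on IR/CHT, and fell there without overlap (-0.77 ± 0.13, adjusted p = 2.91e-05).

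**Figure D3:**
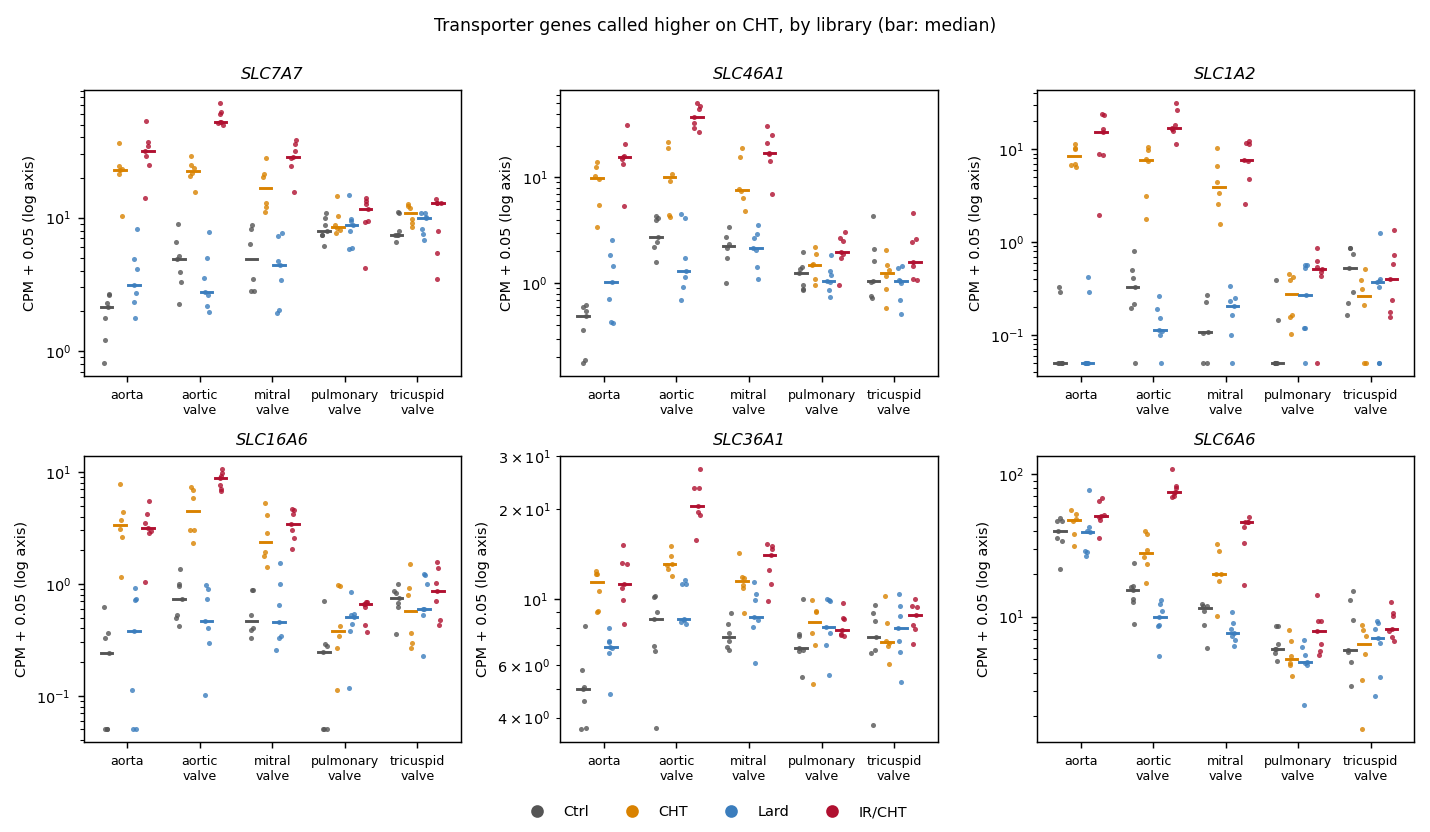
Levels of SLC7A7, SLC46A1, SLC1A2, SLC16A6, SLC36A1 and SLC6A6 by library, in CPM + 0.05 on a log axis, in 5 tissues and 4 treatments (points: libraries, bars: medians). In the aorta, mitral valve and aortic valve the CHT and IR/CHT medians lie above Ctrl for the first 5 genes, and in the pulmonary and tricuspid valves the 4 groups overlap for all 6.

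SLC1A2 (ENSOCUG00000000718) encodes a high-affinity glutamate transporter best known from astrocytes. It was almost without reads on chow, with 8 read pairs in all 7 Ctrl aortas, 9 in all 6 Ctrl mitral valves and a median of 0.282 CPM in the Ctrl aortic valve. On CHT it ranged from 6.41 to 11.46 CPM (median 8.46) in the aorta, from 1.74 to 10.6 CPM (median 7.58) in the aortic valve and from 1.503 to 10.3 CPM (median 3.87) in the mitral valve. On IR/CHT it ranged from 1.92 to 24.2 CPM (median 15.3), from 11.3 to 31.6 CPM (median 17.1) and from 2.52 to 12.2 CPM (median 7.56) in the same order. In each of these tissues every CHT and IR/CHT library was above every Ctrl library; a fold against so few Ctrl reads is not given. In the pulmonary valve the medians were 0 CPM in Ctrl, 0.228 CPM on CHT and 0.466 CPM on IR/CHT, where the highest library had 0.811 CPM. The tricuspid valve had 0.483, 0.213 and 0.348 CPM in the same order, and SLC1A2 was not tested within either right valve.

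The other SLC1A genes were called in fewer tissues than SLC1A2. SLC1A6, another glutamate transporter of neurons, ranged from 4.19 to 11.6 CPM (median 7.67) in the Ctrl aortic valve, from 2.09 to 6.25 CPM (median 3.49) on CHT and from 0.338 to 1.54 CPM (median 0.969) on IR/CHT, so that all IR/CHT libraries lay below all Ctrl libraries. It fell there on IR/CHT (-2.97 ± 0.35, adjusted p = 1.17e-07), and its change of -0.94 ± 0.34 on CHT was not called. In the aorta its IR/CHT change was 0.97 ± 0.65 and in the pulmonary valve 0.78 ± 0.36, neither called, and both differences from the aortic valve passed the interaction test (-4.09 ± 0.72 for aortic valve minus aorta, 3.81 ± 0.51 for pulmonary minus aortic valve). SLC1A5, the neutral amino acid exchanger that takes up glutamine, rose in the IR/CHT aorta (1.09 ± 0.37, adjusted p = 0.0167), a call lost without IR/CHT L566 (adjusted p = 0.0519). SLC1A3, the glutamate transporter of glia, was called in no treatment comparison of the 3 tissues above, with IR/CHT changes of 0.90 ± 0.40, -0.44 ± 0.29 and -0.27 ± 0.27.

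Of the folate carriers, SLC46A1 (ENSOCUG00000007798), the proton-coupled folate transporter, rose in all 3 tissues. In the aorta its libraries lay from 0.126 to 0.571 CPM (median 0.438) in Ctrl, from 3.33 to 14.01 CPM (median 9.90) on CHT and from 5.28 to 30.9 CPM (median 15.6) on IR/CHT, without overlap of either with Ctrl. No Ctrl aorta reached the minimum of the low-count filter for this gene, so its aortic levels are a description and no fold is given. Aortic valves had it from 1.55 to 4.29 CPM (median 2.71) in Ctrl, from 4.13 to 21.5 CPM (median 9.97) on CHT and from 26.9 to 50.5 CPM (median 36.8) on IR/CHT. There 1 CHT library lay below the highest Ctrl library, and all IR/CHT libraries lay above all Ctrl and CHT libraries (1.94 ± 0.42 and 3.72 ± 0.44). In the mitral valve SLC46A1 ranged from 0.955 to 3.35 CPM (median 2.19) in Ctrl, from 4.75 to 18.99 CPM (median 7.58) on CHT and from 6.93 to 30.7 CPM (median 16.9) on IR/CHT, both above all Ctrl libraries (2.24 ± 0.38 and 3.13 ± 0.38). SLC46A2 and SLC46A3 are relatives of SLC46A1. SLC46A2 ranged from 0 to 0.523 CPM (median 0.295) in the Ctrl aortic valve and from 1.25 to 5.17 CPM (median 3.48) on IR/CHT, and SLC46A3 from 3.19 to 5.26 CPM (median 4.59) in Ctrl and from 9.42 to 15.4 CPM (median 12.9) on IR/CHT, both without overlap. SLC46A3 rose on IR/CHT in the aorta, aortic and mitral valve (1.02 ± 0.24, 1.56 ± 0.20 and 0.69 ± 0.15). SLC19A1, the reduced folate carrier, was called on CHT in none of them (0.34 ± 0.68, -1.3997 ± 0.59 and 0.17 ± 0.63), and on IR/CHT only in the aorta (1.65 ± 0.64, adjusted p = 0.0344), where the call was lost without Ctrl L553, L568, L569 or L570 or IR/CHT L566 or L567 (adjusted p up to 0.101).

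Of 21 genes listed for folate binding and one-carbon enzymes, 13 were found, and they stood beside the carriers as follows. All 13 were tested in the aorta and both left valves, where 19.4%, 11.9% and 5.62% of all genes were called on CHT and 34.3%, 42.8% and 17.7% on IR/CHT. On CHT, 3 rose and 1 fell in the aorta, 1 rose and 1 fell in the aortic valve, and 2 rose in the mitral valve. On IR/CHT these counts were 3 and 0, 5 and 2, and 3 and 1. GGH, the lysosomal hydrolase that trims folate of its glutamate tail, rose in every one of these 6 comparisons. In the aorta GGH ranged from 4.92 to 7.27 CPM (median 6.39) in Ctrl and from 60.1 to 272.4 CPM (median 88.9) on IR/CHT (4.29 ± 0.30), and it rose by 4.67 ± 0.39 and 2.83 ± 0.28 in the IR/CHT aortic and mitral valves. SHMT2, the mitochondrial enzyme that passes a carbon from serine to folate, rose on CHT in the aorta (2.31 ± 0.34) and mitral valve (0.70 ± 0.20) and on IR/CHT in all 3 tissues (2.29 ± 0.33, 1.45 ± 0.21 and 1.06 ± 0.20).

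Of the monocarboxylate transporters, 3 of 10 rose and 1 fell on IR/CHT in the aorta (all genes 34.3%), and 3 of 12 rose in the aortic (all genes 42.8%) and 2 of 10 in the mitral valve (all genes 17.7%). SLC16A6 (ENSOCUG00000001594), which in liver is known to export ketone bodies, ranged from 0 to 0.571 CPM (median 0.190) in the Ctrl aorta, from 1.11 to 7.77 CPM (median 3.33) on CHT and from 0.9996 to 5.42 CPM (median 3.11) on IR/CHT. Its aortic valve ranges were 0.372 to 1.30 CPM (median 0.680), 2.25 to 7.33 CPM (median 4.40) and 6.73 to 10.5 CPM (median 8.71), and in the mitral valve 0.279 to 0.835 CPM (median 0.412), 1.36 to 5.25 CPM (median 2.33) and 1.98 to 4.63 CPM (median 3.37). Its CHT and IR/CHT libraries lay above all Ctrl libraries in each of the 3 tissues, with CHT changes of 2.68 ± 0.40 in the aortic and 2.47 ± 0.46 in the mitral valve. In the aorta SLC16A6 reached the minimum of the low-count filter in no Ctrl library, so its levels there are a description. SLC16A3, which exports lactate from glycolytic cells, had 10 read pairs in all 7 Ctrl aortas and medians of 1.73 CPM on CHT and 1.86 CPM on IR/CHT, without overlap, and passed the filter there only through these high groups. Aortic valve levels of SLC16A3 lay from 0.0953 to 0.366 CPM (median 0.225) in Ctrl, from 0.165 to 2.15 CPM (median 0.788) on CHT and from 1.84 to 19.04 CPM (median 3.19) on IR/CHT, where L178 stood apart at the top. There too SLC16A3 reached the minimum of the low-count filter in no Ctrl library, so its aortic valve levels are a description. The CHT call there (adjusted p = 0.0375) was lost without any 1 of Ctrl L150, L166, L182, L240 or L277 or CHT L169 or L265 (adjusted p up to 0.118), with plate 1 alone (0.251) and with the plate as a covariate (0.0859). In the mitral valve 1 Ctrl library reached that minimum. The mitral IR/CHT rise (2.87 ± 0.81) was kept without each library in turn, lost with plate 1 alone (adjusted p = 0.139) and kept with plate 2 alone (0.00966).

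SLC16A1, the widely expressed carrier of lactate and pyruvate, ranged from 33.3 to 163 CPM (median 71.3) in the Ctrl aorta, from 41.7 to 71.4 CPM (median 54.8) on CHT and from 17.4 to 33.7 CPM (median 30.1) on IR/CHT. Only the top IR/CHT library reached into the Ctrl range, and SLC16A1 fell on IR/CHT (-1.43 ± 0.24, adjusted p = 2.18e-05), but its change on CHT of -0.48 ± 0.24 was not called. It changed by -0.30 ± 0.23 on IR/CHT, not called, in the aortic valve, and the difference from the aorta passed the interaction test (1.01 ± 0.33, adjusted p = 0.0165), which was lost without aorta Ctrl L551 (0.0645), the highest Ctrl library, and without the low-mitochondrial libraries (0.112). Aortas on IR/CHT also had lower smooth muscle markers, summed at a median of 30019.7 CPM against 100092 CPM in Ctrl, and 5 of the 6 markers fell. The part of this in the aortic falls of SLC16A1, SLC7A2 and SLC2A12 was not tested.

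Of the 2 SLC36A genes tested, SLC36A1 rose on CHT and IR/CHT in 3 tissues. SLC36A1 (ENSOCUG00000012093), which lets small neutral amino acids leave the lysosome with protons, ranged from 3.60 to 8.06 CPM (median 4.93) in the Ctrl aorta, from 8.998 to 12.4 CPM (median 11.3) on CHT and from 8.18 to 15.1 CPM (median 11.1) on IR/CHT. In the aortic valve it ranged from 3.65 to 10.2 CPM (median 8.51) in Ctrl, from 11.9 to 14.97 CPM (median 13.0) on CHT and from 15.7 to 27.1 CPM (median 20.3) on IR/CHT, again without overlap with Ctrl. Its changes were small: 1.13 ± 0.17, 0.75 ± 0.18 and 0.60 ± 0.15 on CHT in the aorta, aortic and mitral valve, and 1.26 ± 0.17, 1.49 ± 0.18 and 0.82 ± 0.15 on IR/CHT. The CHT call was lost in the aortic valve with plate 1 alone (adjusted p = 0.140) and with only both groups in the fit (0.0572), and in the mitral valve with plate 1 alone (0.109) or without CHT L157 or Ctrl L241, where the fold change dropped below the threshold (log2 fold changes 0.53 and 0.57). SLC36A4, a relative with affinity for proline and tryptophan, had IR/CHT changes of -0.58 ± 0.13, -0.11 ± 0.17 and -0.28 ± 0.10 and was not called. Of the SLC38A family, SLC38A6 ranged from 5.91 to 10.6 CPM (median 10.1) in the Ctrl aorta and from 18.5 to 30.6 CPM (median 20.01) on CHT, and from 4.80 to 11.998 CPM (median 6.54) in the Ctrl aortic valve, from 15.1 to 30.5 CPM (median 21.4) on CHT and from 23.4 to 65.7 CPM (median 41.4) on IR/CHT, without overlap with Ctrl. SLC38A6 thus rose on CHT in the aorta (1.36 ± 0.17) and aortic valve (1.53 ± 0.25) and on IR/CHT in the aorta (1.36 ± 0.17), aortic (2.496 ± 0.25) and mitral valve (0.79 ± 0.16).

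SLC38A7, a lysosomal exit for glutamine, rose on IR/CHT in the aorta (1.91 ± 0.29), aortic (1.59 ± 0.36) and mitral valve (1.54 ± 0.32). SLC38A1, a sodium-coupled glutamine importer, was confined among called genes of CHT and IR/CHT to the aorta. It ranged there from 31.4 to 50.4 CPM (median 45.3) in Ctrl, from 62.5 to 91.5 CPM (median 70.7) on CHT and from 50.6 to 81.6 CPM (median 70.2) on IR/CHT, without overlap of either with Ctrl (0.83 ± 0.12 and 0.72 ± 0.12). The aortic valve had changes of 0.04 ± 0.11 and -0.11 ± 0.10, and both differences between the tissues passed the interaction test (-0.85 ± 0.15, adjusted p = 2.97e-04, and -0.97 ± 0.15, adjusted p = 2.04e-06), where the median of all genes lay at -0.13 and -0.29. SLC38A2, a glutamine importer induced by amino acid starvation, was called in none of the CHT and IR/CHT comparisons, with changes between -0.35 and -0.07 in the aorta, aortic and mitral valve. SLC43A2, a facilitative transporter of branched-chain and aromatic amino acids, ranged from 2.15 to 7.08 CPM (median 4.63) in the Ctrl aorta, from 9.31 to 30.1 CPM (median 22.4) on CHT and from 12.2 to 47.4 CPM (median 26.5) on IR/CHT, without overlap with Ctrl (2.15 ± 0.35 and 2.61 ± 0.35). The groups overlapped in the aortic valve, with 15.3 to 60.6 CPM (median 23.7) in Ctrl, 11.6 to 47.8 CPM (median 31.6) on CHT and 50.02 to 93.5 CPM (median 66.1) on IR/CHT, and 3 of the highest Ctrl values came from the low-mitochondrial libraries L150, L166 and L261. The smaller CHT response of the aortic valve passed the interaction test (-2.21 ± 0.49, adjusted p = 0.00469), but not without the low-mitochondrial libraries (-1.63, adjusted p = 0.0707).

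SLC6A6, the taurine transporter, responded in the left valves. In the aortic valve it ranged from 8.86 to 23.9 CPM (median 15.2) in Ctrl, from 17.2 to 40.2 CPM (median 27.8) on CHT and from 69.7 to 109 CPM (median 74.9) on IR/CHT, where every IR/CHT library lay above every Ctrl and CHT library. In the mitral valve it ranged from 5.98 to 12.1 CPM (median 11.4) in Ctrl, from 10.1 to 32.5 CPM (median 19.9) on CHT and from 16.6 to 50.3 CPM (median 45.9) on IR/CHT, where IR/CHT lay above all Ctrl libraries and the other pairs of groups overlapped. It rose on CHT (0.94 ± 0.21 and 1.08 ± 0.25) and IR/CHT (2.46 ± 0.22 and 1.98 ± 0.25) in these valves, the mitral CHT call being lost with plate 1 alone (adjusted p = 0.0818). The aorta had changes of 0.25 ± 0.22 and 0.50 ± 0.21, neither called, and the larger IR/CHT response of the aortic valve passed the interaction test (1.83 ± 0.30, adjusted p = 6.73e-06). SLC6A9, a glycine transporter, was called on IR/CHT in the aorta, aortic and mitral valve (0.83 ± 0.29, 1.10 ± 0.33 and 0.87 ± 0.28).

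Of 17 genes listed for amino acid metabolism and its stress response, 14 were found. On CHT 4 rose and 1 fell of 13 tested in the aorta (19.4% of all genes called), and none was called of 12 in the aortic (all genes 11.9%) and of 11 in the mitral valve (all genes 5.62%), while on IR/CHT 6 rose and 2 fell in aorta (all genes 34.3%), 4 and 2 in the aortic valve (all genes 42.8%), and 2 and 0 in the mitral valve (all genes 17.7%). GLUL, which makes glutamine from glutamate, rose on IR/CHT by 2.03 ± 0.36, 1.93 ± 0.27 and 1.39 ± 0.24 in these tissues, and SESN2, a leucine sensor, by 3.47 ± 0.51, 2.34 ± 0.32 and 1.77 ± 0.39. ARG1, the arginase that splits arginine, ranged from 0 to 0.105 CPM (median 0) in the Ctrl aortic valve and from 0.564 to 8.13 CPM (median 1.80) on IR/CHT. With so few Ctrl reads it was tested only because it was high in another group, so its levels are a description and no fold is given.

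The same 7 hexose transporters were tested in the aorta and both left valves, and on CHT 1 rose and 1 fell in the aorta (all genes 19.4%), 1 fell in the aortic valve (all genes 11.9%) and none was called in the mitral valve (all genes 5.62%). On IR/CHT 2 rose (SLC2A7, SLC2A8) and 2 fell (SLC2A12, SLC2A13) in the aorta, where 34.3% of all genes were called, and 2 rose (SLC2A7, SLC2A1) and 3 fell (SLC2A12, SLC2A4, SLC2A10) in the aortic valve, where 42.8% were. SLC2A1 (ENSOCUG00000005924), the basal glucose transporter of most cells, ranged from 19.9 to 43.7 CPM (median 38.3) in the Ctrl aorta, from 22.4 to 40.7 CPM (median 38.1) on CHT and from 22.2 to 34.7 CPM (median 28.2) on IR/CHT, in overlapping groups with log2 fold changes of 0.08 ± 0.18 and -0.17 ± 0.17, not called. Aortic valve levels of SLC2A1 lay from 5.57 to 13.8 CPM (median 8.32) in Ctrl, from 5.49 to 17.4 CPM (median 9.04) on CHT and from 9.64 to 26.6 CPM (median 14.96) on IR/CHT, with overlap, and it rose on IR/CHT (0.82 ± 0.25, adjusted p = 0.00962). This call was lost within either plate (adjusted p = 0.213 on plate 1 and 0.0557 on plate 2, log2 fold changes 0.72 and 0.82). SLC2A7, a hexose carrier best known from the intestine and named here after its values were seen, ranged from 0.394 to 1.04 CPM (median 0.523) in the Ctrl aortic valve and from 1.11 to 4.24 CPM (median 1.98) on IR/CHT, without overlap, and rose there (1.95 ± 0.51, adjusted p = 0.00236, but 0.0636 with plate 1 alone) and in the aorta on CHT (2.40 ± 0.70) and IR/CHT (2.82 ± 0.69). SLC2A12, a hexose carrier known from muscle, fell on IR/CHT in the aorta, aortic and mitral valve (-1.597 ± 0.27, -1.85 ± 0.37 and -1.19 ± 0.24) and on CHT in the aorta (-1.03 ± 0.27). Its aortic levels ranged from 10.4 to 17.9 CPM (median 13.6) in Ctrl, from 3.33 to 12.4 CPM (median 6.39) on CHT and from 2.71 to 8.28 CPM (median 4.15) on IR/CHT, and all IR/CHT libraries lay below all Ctrl libraries. The aortic valve ranged from 1.20 to 6.26 CPM (median 3.32) in Ctrl and from 0.346 to 2.11 CPM (median 0.675) on IR/CHT, with overlap.

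SLC2A4, the insulin-responsive glucose transporter of muscle and fat, was scarce in the aortic valve, with 14 read pairs in all 6 CHT libraries and a range from 0.105 to 3.13 CPM (median 0.564) in Ctrl. It fell there on CHT (-3.59 ± 0.94, adjusted p = 0.0107) and IR/CHT (-1.98 ± 0.81, adjusted p = 0.0459). The summed level of 10 heart muscle markers moved with it, ranging from 195.003 to 13069 CPM (median 854) in Ctrl, from 16.2 to 368 CPM (median 66.2) on CHT and from 28.9 to 247.9 CPM (median 68.2) on IR/CHT, and the part of muscle tissue in the SLC2A4 values was not tested. On Lard, 7 of these markers fell and SLC2A4 changed by -2.61 ± 0.85, which was not called (adjusted p = 0.332). With the plate as a covariate both calls were lost (adjusted p = 0.0665 and 0.0951), and SLC2A4 passed the filter on low counts in only 12 of 27 fits that left out 1 library, of which 4 lost the IR/CHT call. Of 20 glycolysis genes listed, 14 were found and tested in these 3 tissues. On CHT 5 rose and 1 fell in the aorta (all genes 19.4%), 2 and 1 in the aortic valve (all genes 11.9%), and 1 and 0 in the mitral valve (all genes 5.62%), and on IR/CHT these counts were 7 and 1, 6 and 1, and 2 and 1 (all genes 34.3%, 42.8% and 17.7%). HK3, a hexokinase of myeloid cells, rose by 3.98 ± 0.60 on CHT and 5.25 ± 0.60 on IR/CHT in the aorta, and HK2, the inducible hexokinase, by 1.33 ± 0.23 and 1.84 ± 0.23. TXNIP, which removes SLC2A1 from the cell surface, fell in the aorta on CHT (-0.73 ± 0.17) and IR/CHT (-0.76 ± 0.16) and was called in no treatment comparison of the valves.

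Several genes fell in the aortic valve on IR/CHT but were not called on CHT. In the same comparison 9 of 10 heart muscle, 4 of 6 smooth muscle and 3 of 4 tested adipocyte markers fell, and their part was not tested. SLC7A14, a lysosomal carrier of the cationic family, ranged from 3.50 to 66.3 CPM (median 19.5) in Ctrl, from 7.79 to 42.8 CPM (median 20.7) on CHT and from 0 to 7.43 CPM (median 1.02) on IR/CHT, where 1 library had no reads (-3.10 ± 0.74, adjusted p = 0.00104). The lowest Ctrl and the highest IR/CHT libraries overlapped, and with plate 2 alone the call was lost (-2.64, adjusted p = 0.122). SLC43A1, a leucine transporter, ranged from 3.50 to 13.9 CPM (median 8.14) in Ctrl, from 3.14 to 9.703 CPM (median 6.89) on CHT and from 2.25 to 4.20 CPM (median 3.08) on IR/CHT (-1.42 ± 0.30, adjusted p = 2.82e-04), also with overlap and lost with plate 2 alone (0.0817). In the aorta SLC43A1 fell on CHT (-0.84 ± 0.21), and its IR/CHT change of -0.35 ± 0.20 was not called. SLC5A3, the myo-inositol transporter, fell on IR/CHT by 0.60 ± 0.21 in aorta and by 0.64 ± 0.16 in the aortic valve, near the fold threshold: the calls were lost without aorta Ctrl L569 or L571 or IR/CHT L565, L566, L567 or L580, and without aortic valve IR/CHT L236 or L257 (log2 fold changes up to -0.49 and -0.56).

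Other called members were of lower level or smaller change. SLC7A1, the widely expressed arginine and lysine importer, rose in the aorta on CHT (1.20 ± 0.40) and IR/CHT (1.05 ± 0.39) and in the IR/CHT aortic valve (0.61 ± 0.25), with aortic medians of 2.41 CPM in Ctrl, 5.84 CPM on CHT and 4.30 CPM on IR/CHT. SLC43A3 ranged from 64.4 to 148 CPM (median 122) in the Ctrl aortic valve and from 99.9 to 221 CPM (median 183.3) on IR/CHT, a rise of 0.68 ± 0.17 beside one of 0.71 ± 0.20 in the aorta. SLC16A13, a carrier of the monocarboxylate family, was called for treatments in the aorta alone, where it rose (1.11 ± 0.34 on CHT and 1.73 ± 0.33 on IR/CHT). SLC16A14, of the same family, had 11 read pairs in all 7 Ctrl aortic valves and 137 in all 7 on IR/CHT, the group through which it passed the filter. Among fallers, SLC38A4, an amino acid importer best known from liver and placenta, fell on IR/CHT from 295 read pairs in the 7 Ctrl aortic valves to 34 (-3.21 ± 1.06), beside a fall of -2.07 ± 0.56 in the aorta, the valve call being lost without Ctrl L261 (adjusted p = 0.0528). SLC2A13, the proton-coupled myo-inositol carrier, fell in the IR/CHT aorta (-0.96 ± 0.32), a call lost without Ctrl L569 (adjusted p = 0.0773). SLC7A3, a cationic amino acid carrier, fell there too (-1.69 ± 0.49), and in the aortic valve (-1.12 ± 0.45), where 12 of 27 fits that left out 1 library lost the call (adjusted p up to 0.0872). The 20 members that passed the filter in no tissue had between 14 (SLC2A2, the liver and islet glucose transporter) and 424 read pairs (SLC5A2, the kidney sodium-glucose cotransporter) over all 134 libraries.

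**Figure D4:**
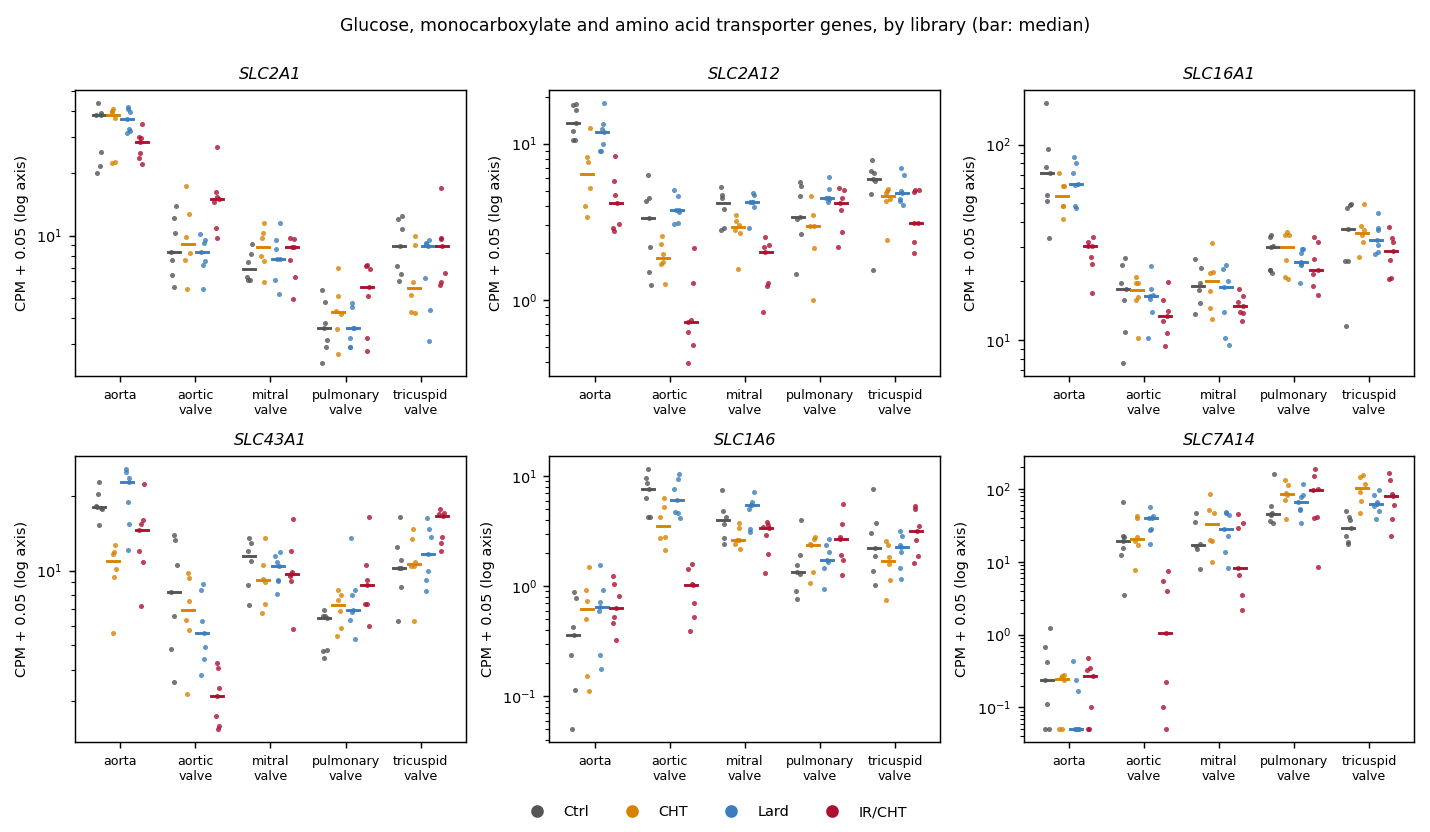
Levels of SLC2A1, SLC2A12, SLC16A1, SLC43A1, SLC1A6 and SLC7A14 by library, in CPM + 0.05 on a log axis, in 5 tissues and 4 treatments (points: libraries, bars: medians). In the aortic valve the IR/CHT medians of SLC2A12, SLC43A1, SLC1A6 and SLC7A14 lie below the other 3 groups, while the IR/CHT median of SLC2A1 lies above them at 14.96 CPM.

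Irradiation on top of the CHT diet was compared directly, as IR/CHT against CHT. In the aortic valve 17 members rose and 4 fell of 56, while 19.7% of all genes were called, 9.90% higher and 9.85% lower, and the members' median log2 fold change was 0.63 against 0.02 over all genes. Of the macrophage markers 11 of 15 and of the T cell markers 3 of 4 rose in the same comparison, and the median share of mitochondrial mRNA was 0.946% on CHT and 0.373% on IR/CHT; their part in these calls was not tested. SLC6A6 (1.52 ± 0.22), SLC46A3 (1.15 ± 0.21), SLC7A8 (1.22 ± 0.25), SLC7A7 (1.402 ± 0.29), SLC16A3 (2.79 ± 0.64), SLC46A1 (1.79 ± 0.42) and SLC36A1 (0.74 ± 0.18) were among the rises. SLC1A6 (-2.03 ± 0.35), SLC7A14 (-3.21 ± 0.75) and SLC43A1 (-1.10 ± 0.30) fell, as did SLC2A12 (-1.04 ± 0.38, adjusted p = 0.0478), whose call was lost in 21 of the 27 fits that left out 1 library (adjusted p up to 0.112). All CHT libraries of this valve were on plate 1, and with plate 1 alone 16 members were called, 14 of them in common. In the aorta no member was called (all genes 0.596%), with 14 of 54 under an unadjusted p of 0.05 and 2 called by DESeq2, while edgeR called 4 without IR/CHT L579 and 1 without Ctrl L551, Ctrl L552 or Lard L578. The mitral valve had no call either (all genes 0.189%), with 12 of 57 under 0.05 unadjusted and 1 called by DESeq2. The pulmonary (all genes 0.0761%) and tricuspid valve (all genes 0%) had none, with 6 of 47 and 7 of 48 under 0.05 unadjusted and 1 and 0 called by DESeq2. Of all genes, 3370 of 14777 in the aorta and 2007 of 15322 in the mitral valve were under 0.05 unadjusted. The pulmonary valve had 3539 of 14450 and the tricuspid valve 1323 of 14700. The share of all genes called by DESeq2 is not given here.

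On Lard no member was called by edgeR in any of the 5 tissues, where 2.61%, 0.234%, 0%, 0% and 0% of all genes were called, in the order aorta, aortic, mitral, pulmonary and tricuspid valve. Under an unadjusted p of 0.05 were 10, 8, 0, 1 and 5 members in that order, and DESeq2 called 4 higher in the aorta, 1 lower in the aortic valve and 0 in the others. Of all genes, 2333 of 14777, 1695 of 15408, 253 of 15322, 360 of 14450 and 1200 of 14700 were under that unadjusted p. The aorta count reached 2 when Lard L563 or L576 was left out, and 1 without IR/CHT L579. SLC7A7 had 1.71 to 8.11 CPM (median 3.05) in the Lard aorta with a log2 fold change of 1.03 ± 0.34 (adjusted p = 0.112), and SLC46A1 0.373 to 2.52 CPM (median 0.989) with 1.62 ± 0.48 (adjusted p = 0.0720). SLC2A1 changed by 0.17 ± 0.17 and SLC16A1 by -0.26 ± 0.23 in that tissue. Macrophage markers in the Lard aorta summed to a median of 437 CPM, between Ctrl and CHT, and 9 of 15 rose there, as did 2 of 3 neutrophil markers tested. The sum of the 10 neutrophil markers found had a median of 6.47 CPM there, with the highest library, L562, at 140.6 CPM. In Ctrl this sum was at most 2.72 CPM.

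The right valves gave 1 call in their 8 treatment comparisons. On CHT, 0 of 47 members were called in the pulmonary valve (all genes 0.159%), with 2 members and 1441 of 14450 genes under an unadjusted p of 0.05 and 0 members called by DESeq2, and 1 of 48 in the tricuspid valve (all genes 0.163%, with 0.0816% higher). This was SLC7A14, which ranged from 17.7 to 49.6 CPM (median 28.9) in Ctrl and from 47.4 to 155.1 CPM (median 105) on CHT with overlap (1.74 ± 0.36, adjusted p = 0.0423). The call was lost in 14 of 27 fits that left out 1 library (adjusted p up to 0.139), with only both groups in the fit (0.111) and within either plate (0.148 and 0.224). On IR/CHT no member was called in the pulmonary (all genes 0.706%, 11 members and 2207 of 14450 genes under 0.05 unadjusted, 2 members by DESeq2) or tricuspid valve (all genes 0.231%, 8 members and 1198 of 14700 genes under 0.05 unadjusted, 1 member by DESeq2). Without tricuspid valve Ctrl L168, which was nearer to the aortic valve, 5 members were called there on IR/CHT: SLC7A14, SLC7A8 and SLC43A1 higher and SLC1A3 and SLC2A12 lower, named here after their values were seen, and 1 was called without IR/CHT L177.

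Differences between tissues in the same response were tested as interactions, called at an adjusted p under 0.05. Against the aorta, the aortic valve had a lower response to CHT in 5 of 62 members and a higher one in none (all genes 5.30%, with 4.25% lower), namely SLC38A1, SLC43A2, SLC46A1 (-2.74 ± 0.65), SLC2A4 and SLC7A7, and SLC7A7 (-1.51 ± 0.45, adjusted p = 0.0379) was lost with the rabbit as a block (adjusted p = 0.0632) and in 12 of 26 fits that left out 1 library (up to 0.0863). Called members numbered 9 without aortic valve CHT L151 and 8 without aortic valve Ctrl L182. The response of this valve to IR/CHT was higher in 5 and lower in 12 members (all genes 32.8%, with 11.1% higher and 21.7% lower), which became 2 and 3 without the 3 Ctrl aortic valve libraries low in mitochondrial mRNA, with SLC38A1, SLC6A6, SLC1A6, SLC7A11 and SLC2A1 kept. Of these, SLC7A11 had 11 read pairs in all 7 Ctrl aortas, so its difference is given as a value only. The pulmonary valve had a lower response to CHT than the aortic valve in 3 of 60 members (all genes 4.39%, with 4.01% lower): SLC38A6 (-1.53 ± 0.28), SLC7A7 (-1.97 ± 0.38) and SLC6A6 (-1.19 ± 0.32), the last lost without aortic valve CHT L169 or L265 or pulmonary valve CHT L246. To IR/CHT it was lower in 12 and higher in 6 (all genes 40.2%, with 23.3% higher and 16.8% lower), led by SLC38A6 (-2.59 ± 0.27, adjusted p = 9.41e-11) and SLC7A7 (-3.17 ± 0.37, adjusted p = 1.13e-09), with SLC43A1 (2.197 ± 0.37) and SLC1A6 on the other side, and 17 were called without L176. Against the mitral valve, 5 of 58 members passed with a lower response to CHT in the tricuspid valve (all genes 2.23%, with 2.14% lower), of which SLC1A2 is given no weight, since it passed the filter only through the mitral groups in which it is high, and the others were SLC46A1 (-2.66 ± 0.58), SLC16A6 (-2.58 ± 0.64), SLC7A8 (-1.22 ± 0.33) and SLC6A6 (-1.598 ± 0.45). Called members became 3 without any 1 of mitral valve Ctrl L156, mitral valve CHT L157 or L266, tricuspid valve Ctrl L168, or tricuspid valve CHT L231 or L247.

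On chow, transporters differed between the aorta and the aortic valve. Against the aorta, 21 of 54 tested members were higher and 13 lower in the aortic valve, where 49.6% of all genes were called, 29.2% higher and 20.5% lower. Of the markers of cell types, 13 of 14 macrophage, 5 of 8 endothelial and 7 of 10 heart muscle genes were higher and 5 of 6 smooth muscle genes lower in the valve, and their part was not tested. Without the 3 low-mitochondrial Ctrl libraries of this valve, 13 were higher and 10 lower, 22 of them in common. Lower in the valve were the glucose and lactate carriers SLC2A1 (-1.85 ± 0.23), SLC2A12 (-2.12 ± 0.33) and SLC16A1 (-2.18 ± 0.30), the arginine carrier SLC7A2 (-1.54 ± 0.21) and the taurine carrier SLC6A6 (-1.4004 ± 0.27), all of which kept the call without those libraries. Higher were SLC38A1 (0.99 ± 0.10), SLC46A1 (2.95 ± 0.42), SLC7A8 (1.17 ± 0.18), SLC43A2 (2.68 ± 0.43) and SLC19A1 (2.92 ± 0.78), likewise kept. For SLC2A1 this was 19.9 to 43.7 CPM (median 38.3) in the aorta against 5.57 to 13.8 CPM (median 8.32) in the aortic valve, without overlap, and for SLC38A1 31.4 to 50.4 CPM (median 45.3) against 74.8 to 98.98 CPM (median 88.6). SLC38A11 had 120 read pairs in the 7 Ctrl aortas, 1 in the 7 Ctrl aortic valves and 11 in the 7 Ctrl pulmonary valves.

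**Figure D5:**
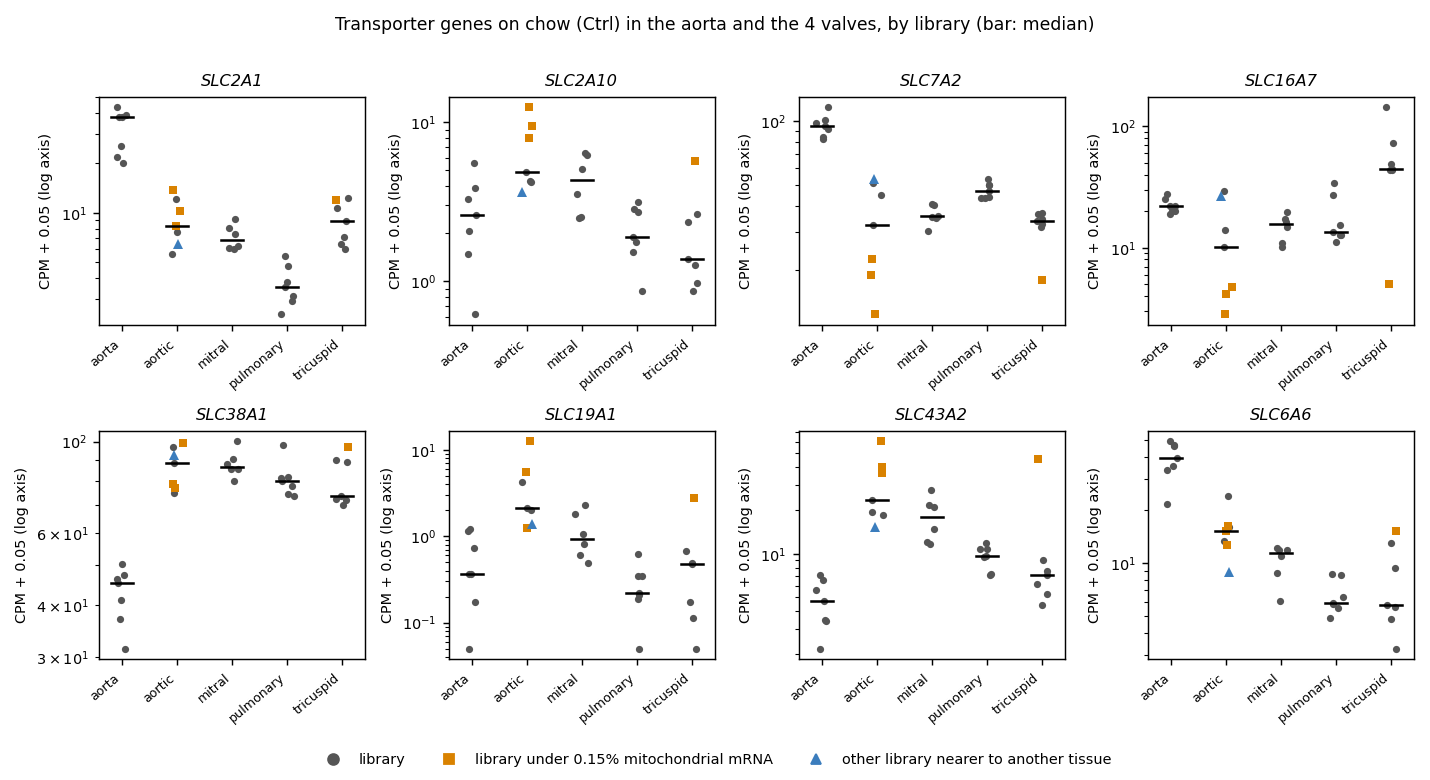
Levels of SLC2A1, SLC2A10, SLC7A2, SLC16A7, SLC38A1, SLC19A1, SLC43A2 and SLC6A6 in Ctrl libraries of 5 tissues, in CPM + 0.05 on a log axis (bars: medians; squares: libraries under 0.15% mitochondrial mRNA; triangles: another library nearer to another tissue). The tricuspid square, L168, lies within the range of the aortic valve libraries for SLC2A10, SLC16A7 and SLC43A2, and SLC2A1 lies higher in the aorta than in every valve library.

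Of 3 pairs of valves compared on chow, pulmonary and aortic valve differed in the most members, with 8 members higher and 24 lower of 54 (all genes 48.2%, with 18.4% higher and 29.9% lower). Without the 3 low-mitochondrial aortic valve libraries 5 were higher and 14 lower, and with plate 2 alone, which held 2 pulmonary valve libraries, none was called. SLC2A1 (-1.35 ± 0.23), SLC38A7 (-2.0004 ± 0.37), SLC6A9 (-2.25 ± 0.44) and SLC19A1 (-4.12 ± 0.83) led the lower genes, and SLC5A3 (0.80 ± 0.15) and SLC38A6 (0.87 ± 0.20) the higher ones, and these 6 kept their call without those libraries. Of the 8 endothelial markers 6 were also higher in the pulmonary valve, and their part was not tested. The glutamine carrier SLC1A5 (-1.59 ± 0.42) lost its call (adjusted p = 0.127 without the low-mitochondrial libraries), as did SLC38A3 (-1.63 ± 0.41, 0.152). SLC6A7, SLC7A10, SLC16A5 and SLC16A11 were also called lower in the pulmonary valve. They passed the low-count filter in no treatment fit of that valve, so they are named as a description and no fold is given. Further members lower in the pulmonary valve were SLC5A6 (-1.53 ± 0.35) and SLC16A10 (-1.18 ± 0.35), which kept their call without those libraries. SLC16A9 (0.89 ± 0.24), which was higher, lost its call, as did SLC7A10, and SLC16A11 had too few reads to be tested without them. The mitral and aortic valves differed in 1 member (all genes 2.75%, with 1.37% lower), SLC7A8 (-0.77 ± 0.19, adjusted p = 0.0198), which was lost without aortic valve Ctrl L261 (0.0597), and 2 were called without L182, L198 or L277 and 6 without the libraries nearer to another tissue. The tricuspid and mitral valves differed in 2 (all genes 5.33%, with 3.95% higher and 1.39% lower): SLC16A7, a pyruvate carrier of heart and other tissues, was higher (1.94 ± 0.49) and SLC43A3, which carries purine bases, lower (-0.72 ± 0.19), both lost without tricuspid valve Ctrl L243 (adjusted p = 0.0575 and 0.0507). Ctrl L243 also held the highest heart muscle markers of that group, 43336 CPM against a median of 9682 CPM. With the rabbit as a block 7 members were called between these valves, and without L168 12.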

How the data were processed

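Total RNA of rabbit aortas and heart valves was made into libraries with a SMARTer Stranded Total RNA-Seq Kit (Pico input) and sequenced as read pairs. Per the labels, reads were demultiplexed with bcl2fastq 2.20; the authors aligned them to the rabbit genome OryCun2.0 with the nf-core RNA-seq pipeline and deposited raw counts of read pairs per Ensembl gene, as tables of all libraries. The study's methods give default pipeline settings except for read trimming and do not spell out a strand setting, so overlapping and antisense genes (SLC7A6OS) are uncertain. Groups, tissues and plates came from the labels; samples of 1 rabbit count once per tissue, and irradiation or vitamin D2 alone was not analysed here.

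From the counts, genes were filtered within each tissue (filterByExpr), scaled (TMM) and fitted with all 4 treatments of the tissue in edgeR 4.0.16 (robust quasi-likelihood test, R 4.3.3), with Benjamini-Hochberg adjustment over all genes tested. Tissues were compared on Ctrl libraries, and interactions in joint fits of 2 tissues, and libraries of 1 rabbit entered these as independent. Alternatives with the rabbit as a block were an edgeR fit with the rabbit as a covariate for tissues, and a limma 3.58.1 fit for interactions. The blocks pair tissues of the same animal: deviations from the Ctrl means correlated above 0.1 in 3 of 7 rabbits for aortic valve and aorta, 6 of 6 for mitral and aortic valve, 2 of 7 for pulmonary and aortic valve and 4 of 6 for tricuspid and mitral valve. DESeq2 1.42.0, its size factors, no filter, only the groups compared, the plate, single plates, libraries low in mitochondrial mRNA or nearer to another tissue, and each library in turn were other alternatives, those of libraries being chosen after seeing the data. The smallest library had 13.6 read pairs at 1 CPM, which bounds the precision of low genes by counting error. The code was tested on simulated data. The members and gene lists were chosen with earlier results of these data known. Named were, per comparison, the 10 higher and 8 lower called members with the smallest p, the 6 leading interactions, a list of 12 transporters in every comparison, all members called on CHT in 3 tissues or in a right valve, the member of each family with the highest mean CPM, and of each partner list the 3 called genes with the smallest p; SLC46A2 and SLC2A7 were added after their values were seen.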

Additional observations from a re-analysis of the deposited data

Results flagged for a closer look

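In 11 groups of libraries, the highest or lowest library lay farther from the rest than a Dixon test at the 95% level allows, which is 5.85% of the groups tested, where chance at 1 in 20 gives about 9.4. In the IR/CHT aortic valve L178 was highest for SLC16A3 (19.04 CPM, next 8.40), SLC43A2 (93.5 CPM, next 68.2) and SLC2A1 (26.6 CPM, next 16.1), and L236 for SLC6A6 (109 CPM, next 82.6). In the Ctrl aortic valve, low-mitochondrial libraries were highest for SLC7A14 (L166 at 66.3 CPM, next 22.6) and SLC19A1 (L150 at 12.7 CPM, next 5.49). In the pulmonary valve, Ctrl L167 was highest for SLC7A14 (163 CPM, next 58.3), Ctrl L279 for SLC1A6 (3.95 CPM, next 1.86) and CHT L154 for SLC7A7 (14.48 CPM, next 10.2). In the IR/CHT mitral valve L175 was lowest for SLC7A8 (27.4 CPM, next 54.6), and in the IR/CHT aorta L567 was highest for SLC7A11 (1.47 CPM, next 0.608).

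Responses to treatment were compared between tissues by edgeR's interaction test, called at an adjusted p under 0.05. For IR/CHT, 17 members were called in aortic valve minus aorta and 18 in pulmonary minus aortic valve, of which only the named ones follow. The 32 interactions named are given as differences of log2 fold changes. For CHT in aortic valve minus aorta these were -0.85 for SLC38A1, -2.21 for SLC43A2, -2.74 for SLC46A1, -3.67 for SLC2A4 and -1.51 for SLC7A7. For CHT in pulmonary minus aortic valve they were -1.53 for SLC38A6, -1.97 for SLC7A7 and -1.19 for SLC6A6, and in tricuspid minus mitral valve -6.92 for SLC1A2, -2.66 for SLC46A1, -2.58 for SLC16A6, -1.22 for SLC7A8 and -1.598 for SLC6A6. For IR/CHT in aortic valve minus aorta they were -0.97 for SLC38A1, 1.83 for SLC6A6, -4.09 for SLC1A6, 1.01 for SLC38A6, -1.63 for SLC43A2, -2.78 for SLC7A11, -1.92 for SLC46A1, 1.01 for SLC16A1, 0.84 for SLC2A1 and -2.16 for SLC19A1. Of these last, without the libraries low in mitochondrial mRNA the call was lost for SLC38A6 (adjusted p = 0.0664), SLC43A2 (0.183), SLC46A1 (0.0904), SLC16A1 (0.112) and SLC19A1 (0.330), and with the rabbit as a block for SLC46A1 (0.0555). For IR/CHT in pulmonary minus aortic valve they were -2.59 for SLC38A6, -3.17 for SLC7A7, 3.81 for SLC1A6, -2.04 for SLC6A6, 2.197 for SLC43A1, -2.86 for SLC46A1, -1.25 for SLC36A1, -2.08 for SLC16A6 and -3.08 for SLC1A2. Leaving out 1 library ended the call of SLC19A1 (IR/CHT, aortic valve minus aorta) in 16 of 28 fits and of SLC2A1 in 7 of 28, that of SLC6A6 (CHT, tricuspid minus mitral valve) in 11 of 25 and of SLC7A8 in 9 of 25. For IR/CHT in pulmonary minus aortic valve, the calls of SLC16A6 (adjusted p = 0.162 without Ctrl L200) and SLC1A2 (adjusted p = 0.526 without Ctrl L153 and 0.0722 without Ctrl L263) rested on single pulmonary valve libraries. SLC1A2 passed the filter on low counts in neither right valve, and entered these fits through the left valve groups in which it is high, so its differences are given as values only. The difference of SLC7A11 is likewise a value only, since all 7 Ctrl aortas held 11 read pairs of it.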

How the results depend on the processing

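No named result reversed its direction; 112 kept direction and call under every other method, filter and subset of libraries and 80 did not, and 34 lost a call without some single library; the cause of the other changes was not tested. Calls were lost most with plate 2 alone (53 of 91) and plate 1 alone (16 of 64), which hold fewer samples, and without libraries low in mitochondrial mRNA (32 of 134). Counts of called members moved by over 1.5 times as follows. With DESeq2 they were 4 on Lard in the aorta, 1 on Lard in the aortic valve, 2, 1 and 1 for IR/CHT against CHT in the aorta, mitral and pulmonary valve, and 2 and 1 for IR/CHT against Ctrl in the pulmonary and tricuspid valve, all 0 with edgeR, and 8 for the response to CHT in aortic valve against aorta (5 with edgeR). With only the groups compared in the fit, IR/CHT against CHT in the aorta gave 1, and CHT in the tricuspid valve gave 0 in place of 1, as it did with no filter (0), plate 1 (0) and plate 2 (0). Plate 2 alone gave 17 of 29 for IR/CHT in the aortic valve and 9 of 16 in the mitral valve (10 on plate 1), and 0, 0 and 0 between mitral and aortic, pulmonary and aortic, and tricuspid and mitral Ctrl valves (1, 32 and 2 in all). Without libraries low in mitochondrial mRNA there were 5 on IR/CHT in the tricuspid valve, 19 between pulmonary and aortic and 14 between tricuspid and mitral Ctrl valves, and 3, 5 and 3 for the interactions of CHT and IR/CHT in aortic valve against aorta and of CHT in tricuspid against mitral valve (5, 17 and 5 in all). Without libraries nearer to another tissue there were 1 on IR/CHT in the tricuspid valve, 6 between mitral and aortic and 12 between tricuspid and mitral Ctrl valves. Leaving out 1 library gave 0 to 1 for CHT and 0 to 5 for IR/CHT in the tricuspid valve, 0 to 2 for Lard in the aorta, 0 to 4 and 0 to 1 (1 without IR/CHT L175 or CHT L157) for IR/CHT against CHT in the aorta and mitral valve, 0 to 2 between mitral and aortic and 0 to 12 between tricuspid and mitral Ctrl valves, and 4 to 9 and 3 to 6 for the responses to CHT in aortic valve against aorta and tricuspid against mitral valve.

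With the rabbit as a block, tissue comparisons called 36, 1, 34 and 7 members (34, 1, 32 and 2 without), and interactions 5, 17, 3, 22 and 6. Of 89 named results 3 lost their call, SLC7A7 (adjusted p = 0.0632) for CHT and SLC46A1 (0.0555) for IR/CHT in aortic valve against aorta, and SLC16A6 (0.109) for IR/CHT in pulmonary against aortic valve, all by limma. No paired analysis was possible because each rabbit received 1 treatment, for the comparisons of treatments. Depth limits genes near 1 CPM, such as SLC7A11, SLC16A3 and SLC1A2 on chow.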

Other observations

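Markers of other cells, which enter no comparison of transporters, moved with the groups as follows. Of 4 T cell markers, 4 rose in the IR/CHT aorta and 3 in the IR/CHT aortic valve, where their summed level had medians of 2.05 CPM in Ctrl and 15.2 CPM on IR/CHT. Of 10 neutrophil markers found, 3 were tested in the aorta and 2 of these rose on IR/CHT. The sum of the 10 had a median of 6.47 CPM there, with the highest library, L567, at 70.0 CPM. Of 7 adipocyte markers, 2 rose and 1 fell there, and of 3 red blood cell markers 1 fell. Of 9 heart muscle markers tested in the aorta, 5 rose and 1 fell on IR/CHT, while their summed level lay from 562.6 to 789.6 CPM (median 721) in Ctrl and from 190.4 to 3078 CPM (median 324) on IR/CHT, where L566 was highest.

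Members called in no comparison of CHT or IR/CHT with Ctrl included SLC38A2, SLC1A3 and SLC36A4. SLC38A2 lay from 160.5 to 288 CPM (median 233.2) in the Ctrl aorta and from 129 to 190.4 CPM (median 172.1) on IR/CHT. SLC1A3 lay from 3.20 to 14.2 CPM (median 7.18) in the Ctrl aortic valve and from 4.18 to 8.63 CPM (median 5.60) on IR/CHT. SLC36A4 lay from 15.1 to 31.6 CPM (median 24.3) in the Ctrl aortic valve and from 14.9 to 25.2 CPM (median 20.5) on IR/CHT.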
